A study of Mus musculus with 2 samples.

Results

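The genes described here are 44 mouse genes of lipid synthesis, uptake and storage. They were chosen as a list of symbols and looked up in the deposited table of genes of a single-cell RNA sequencing experiment on whole lungs. All 44 were found, among 19278 genes in the table. The lungs came from female BALB/c mice aged 20 weeks that had been fed from the age of 4 weeks, thus for 16 weeks, with a control diet (CD) or with a long-chain high-fat diet (HFD). CD supplied 13% of its energy as fat and HFD 60%, from lard, with protein at 27% and 20% and carbohydrate at 60% and 20%. No genotype or other treatment was given for either group. Each diet was represented by 1 library, and how many mice entered a library was not stated. The values at hand for each gene were its presence in the table and its flags, which the authors set over the cells of both libraries together. They carry no direction between diets and no cell type, and the level of each gene in CD and HFD cells was not analysed here.

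Fatty acids are made in the cytosol from acetyl-CoA, elongated and desaturated at the endoplasmic reticulum, and activated to acyl-CoA before they can be stored, built into membranes or burned. Cells also take them up from lipoproteins and albumin and carry them bound to small cytosolic proteins. In the lung, alveolar type II (AT2) cells turn fatty acids into the phosphatidylcholine of surfactant, alveolar macrophages clear spent surfactant, and capillary endothelium and lipid-storing fibroblasts handle fatty acids from the blood.

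A gene entered the table when it was found in at least 5 cells, which is 0.0272% of the 18397 cells kept by the authors. Of the 22028 protein-coding genes of the GENCODE M21 annotation, 72.3% were listed, and so were all 44 lipid genes. None of the 44 belonged to the mitochondrial, ribosomal or cell cycle classes, which hold 283 genes. Being listed says little about level, since the smallest annotated cell type, basophils, held 62 cells.

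The highly variable flag marks the 1000 genes whose variation between cells lay furthest above the trend with expression. It was carried by 5.19% of all genes in the table and by 12 of the 44 lipid genes (27.3%). Among genes outside the mitochondrial, ribosomal and cell cycle classes the flagged share was 5.26%, and among protein-coding genes 5.90%. Only genes with a normalised expression above 0.01 could be flagged. These shares may therefore count genes too rare to carry the flag, and a background matched for expression was not available. The flagged lipid genes were Scd1, Fabp1, Fabp3, Fabp4, Fabp5, Lpl, Dgat2, Chka, Lpcat1, Apoe, Apoc1 and Abcg1. They spread unevenly over the steps of lipid handling. Of 11 groups by role, 6 held a flagged gene and 5 held none. Since the authors computed principal components, the UMAP and the clusters from the 1000 flagged genes, these 12 also took part in defining the cell types, and made up 1.2% of that input.

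**Figure D1:**
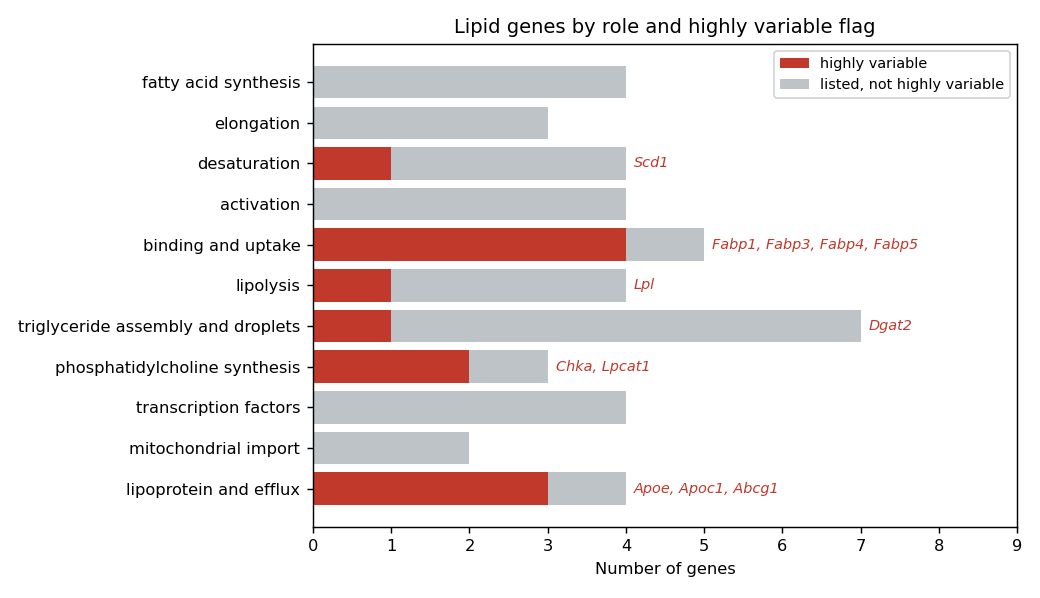
Number of lipid genes in each of 11 role groups (horizontal axis, count of genes), split into genes with the highly variable flag (red, named) and listed genes without it (grey). Binding and uptake, phosphatidylcholine synthesis, and lipoprotein and efflux hold 9 of the 12 flagged genes, and 5 groups hold none.

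Promoter sequence is shown for the groups in which most genes were flagged, binding and uptake, phosphatidylcholine synthesis, and lipoprotein and efflux, so that flagged genes can be read beside unflagged genes of the same role. The reference table held 8 promoters of these groups and 34 of all 44 genes. Each run is the 250 bases before the RefSeq start of the gene in GRCm38.p6, on the strand of the gene. Capitals mark, on either strand, the CCAAT box, the GC box GGGCGG, the E-box CACGTG, the sterol element TCACNCCAC and the TATA box TATAAA. The following 5 belong to flagged genes, Fabp1 (chr6:71199629-71199878, plus strand), Fabp3 (chr4:130308488-130308737, plus), Chka (chr19:3851523-3851772, plus), Lpcat1 (chr13:73466981-73467230, plus) and Apoe (chr7:19699189-19699438, minus).
Fabp1: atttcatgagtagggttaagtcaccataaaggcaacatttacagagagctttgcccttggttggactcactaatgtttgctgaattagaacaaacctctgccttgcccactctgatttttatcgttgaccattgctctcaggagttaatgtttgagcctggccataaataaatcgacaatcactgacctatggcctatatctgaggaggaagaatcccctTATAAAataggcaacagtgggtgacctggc
Fabp3: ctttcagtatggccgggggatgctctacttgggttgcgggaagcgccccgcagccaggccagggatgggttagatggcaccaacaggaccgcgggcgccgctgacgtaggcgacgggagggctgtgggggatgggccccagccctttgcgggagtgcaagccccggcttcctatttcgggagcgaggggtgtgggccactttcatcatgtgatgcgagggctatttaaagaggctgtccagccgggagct
Chka: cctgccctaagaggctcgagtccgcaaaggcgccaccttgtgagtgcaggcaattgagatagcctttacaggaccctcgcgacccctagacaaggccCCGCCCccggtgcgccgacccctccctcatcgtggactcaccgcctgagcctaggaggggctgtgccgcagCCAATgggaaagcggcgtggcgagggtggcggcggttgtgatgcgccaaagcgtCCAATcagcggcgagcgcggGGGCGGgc
Lpcat1: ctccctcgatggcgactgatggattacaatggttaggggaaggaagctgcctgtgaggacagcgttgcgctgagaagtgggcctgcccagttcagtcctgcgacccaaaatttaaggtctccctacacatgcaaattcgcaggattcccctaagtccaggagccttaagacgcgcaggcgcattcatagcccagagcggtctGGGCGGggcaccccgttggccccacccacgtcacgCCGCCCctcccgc
Apoe: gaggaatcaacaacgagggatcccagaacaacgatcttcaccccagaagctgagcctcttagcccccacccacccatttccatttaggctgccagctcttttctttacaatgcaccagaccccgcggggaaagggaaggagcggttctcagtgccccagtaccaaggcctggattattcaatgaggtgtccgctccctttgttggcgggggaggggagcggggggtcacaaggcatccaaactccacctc
The unflagged genes of the same groups are Cd36 (chr5:17835897-17836146, minus), Pcyt1a (chr16:32430671-32430920, plus) and Abca1 (chr4:53159896-53160145, minus).
Cd36: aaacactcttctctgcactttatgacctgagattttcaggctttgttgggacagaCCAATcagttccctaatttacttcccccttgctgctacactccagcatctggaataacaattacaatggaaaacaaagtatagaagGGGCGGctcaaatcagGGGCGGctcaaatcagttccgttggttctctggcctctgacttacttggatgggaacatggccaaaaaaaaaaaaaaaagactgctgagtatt
Pcyt1a: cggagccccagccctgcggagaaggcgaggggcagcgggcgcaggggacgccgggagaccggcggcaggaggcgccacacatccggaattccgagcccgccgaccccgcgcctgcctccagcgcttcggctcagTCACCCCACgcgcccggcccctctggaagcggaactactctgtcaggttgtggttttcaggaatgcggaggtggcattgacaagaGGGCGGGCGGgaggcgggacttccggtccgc
Abca1: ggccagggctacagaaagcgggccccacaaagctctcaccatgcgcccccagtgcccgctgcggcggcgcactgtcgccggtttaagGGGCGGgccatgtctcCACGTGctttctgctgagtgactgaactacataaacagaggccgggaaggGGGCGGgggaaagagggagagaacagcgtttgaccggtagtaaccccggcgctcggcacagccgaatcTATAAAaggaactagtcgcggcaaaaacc
The Cd36 start used by RefSeq lies 52.9 kb inside the gene as GENCODE draws it, so this run is the promoter of an internal start. For the 7 other genes both starts lie within 1 kb of each other.

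Binding and uptake was the group with the highest flagged share, 4 of 5 genes. Fatty acid binding proteins are small cytosolic carriers that take long-chain fatty acids to enzymes, droplets and the nucleus. Fabp1 (the liver form, chr6:71199827-71205023, plus), Fabp3 (the heart form, chr4:130308595-130315463, plus), Fabp4 (the adipocyte form, chr3:10204088-10208576, minus) and Fabp5 (the epidermal form, chr3:10012548-10016607, plus) all carried the flag. Of the whole family, 6 genes were listed, and the other 2, Fabp7 and Fabp12, were not flagged. Fabp2, Fabp6 and Fabp9 were not listed. Cd36, a membrane receptor for long-chain fatty acids and oxidised lipoproteins, was listed without the flag. Of the 12 listed genes related to this group, 2 were flagged (16.7%) and 10 were not. Gpihbp1, which holds lipoprotein lipase on capillary endothelium, was among those that carried the flag.

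Fabp5 and Fabp4 are neighbours on chromosome 3, separated by 187 kb and 1 listed gene. In Fabp3, 37.3% of all 31-base words of its transcripts also occurred in transcripts of other genes, mostly of the processed pseudogene Fabp3-ps1. For Fabp5 this share was 9.21%, again mostly through pseudogenes, whereas it was 0.266% for Fabp4 and 0% for Fabp1. The table listed 0 processed pseudogenes. Whether reads from shared stretches were assigned or discarded is not given in the sources used here. Fabp3 also overlaps the listed genes Zcchc17 and Gm10570 on the opposite strand.

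Of the lipoprotein and efflux group, 3 of 4 genes were flagged. Apoe (chr7:19696109-19699188, minus), the ligand by which remnant lipoproteins are taken up, and Apoc1 (chr7:19689481-19692660, minus), a small apolipoprotein that modulates lipoprotein metabolism, lie 3.45 kb apart with no listed gene between them, and both carried the flag. Abcg1 (chr17:31057675-31117988, plus), which exports cholesterol to high-density lipoprotein, was flagged. Abca1, which exports cholesterol and phospholipid to lipid-poor apolipoprotein A-I, was not. In the list of related genes 4 of 20 listed genes were flagged, namely Apoc2 and Apod, which encode apolipoproteins, Clu, which encodes clusterin, and Scarb1, a receptor for high-density lipoprotein. Apoa2, Apoa4 and Apoc3 were not listed.

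Phosphatidylcholine is the main phospholipid of surfactant. Chka (chr19:3851773-3894369, plus) phosphorylates choline in the first step of its synthesis, and Lpcat1 (chr13:73467197-73516422, plus) remodels it by adding an acyl chain to lysophosphatidylcholine, a step known for surfactant in AT2 cells. Both were flagged. Pcyt1a, whose enzyme makes CDP-choline and usually limits the rate, was listed without the flag. None of 11 listed related genes, Lpcat2, Lpcat3, Lpcat4 and Chkb among them, was flagged. Lpcat1 was thus the flagged one of 4 listed Lpcat genes. Chka and Pcyt1a overlap other listed genes on the opposite strand, Gm16066 and Slc51a respectively, and Lpcat1 overlaps none.

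Desaturation, lipolysis, and triglyceride assembly and droplets held 1 flagged gene each. Scd1 (chr19:44394455-44407879, minus), a stearoyl-CoA desaturase that makes oleate from stearate and palmitoleate from palmitate, was flagged. The isoform Scd2 lies 87.6 kb away and was not, nor were Scd3 and Scd4. Scd1 shared 8.14% of its 31-base words with other genes, mainly Scd3 and Scd2, and Scd2 shared 6.81%. These shares cover whole transcripts, and how reads from the shared stretches were handled is not given in the sources used here. Fads1 and Fads2, the delta-5 and delta-6 desaturases of polyunsaturated fatty acids, were listed without the flag.

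Lpl (chr8:68880491-68907448, plus), lipoprotein lipase, frees fatty acids from circulating triglyceride and was the 1 flagged gene of 4 in lipolysis. Pnpla2 (adipose triglyceride lipase) and Lipe (hormone-sensitive lipase), which empty the droplet in turn, and Lipa, the lysosomal acid lipase, were not flagged. In related genes of lipolysis 4 of 9 were flagged. These were Mgll, the monoacylglycerol lipase, Lipg, endothelial lipase, G0s2, an inhibitor of adipose triglyceride lipase, and Ces1d, a carboxylesterase.

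Among 7 genes of triglyceride assembly and droplets, Dgat2 (chr7:99153658-99182719, minus), an enzyme of the last acylation of triglyceride synthesis, was flagged, and Dgat1, an unrelated enzyme of the same reaction, was not. Gpam, which starts glycerolipid synthesis, the phosphatidate phosphatases Lpin1 and Lpin2, and the droplet coat proteins Plin2 and Plin3 were listed without the flag. All 5 listed perilipins, Plin1 to Plin5, lacked it. In the related list 1 of 20 listed genes was flagged, Hilpda, a droplet protein known to be induced by hypoxia.

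The remaining 17 lipid genes fell into 5 groups without a flagged gene. Fatty acid synthesis held Acly, which makes cytosolic acetyl-CoA, the acetyl-CoA carboxylases Acaca and Acacb, and Fasn, the fatty acid synthase that makes palmitate. Elongation held Elovl1, Elovl5 and Elovl6. Activation held the acyl-CoA synthetases Acsl1, Acsl3, Acsl4 and Acsl5. The transcription factors were Srebf1 and Srebf2, which drive fatty acid and sterol genes, and Pparg and Ppara, which respond to fatty acids. Mitochondrial import held Cpt1a and Cpt2, the carnitine palmitoyltransferases of the outer and inner membrane. A gene without the flag may be abundant or rare, even or variable, since the flag is a rank within the table and needs a normalised expression above 0.01.

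Related genes were looked up for 4 of these 5 groups, all but fatty acid synthesis. None of the 3 listed genes of elongation, 6 of activation, 16 of transcription and its control, and 4 of mitochondrial import was flagged. Acaca shared 33.4% of its 31-base words with other genes, nearly all with the processed pseudogene Gm5182. Elovl6 shared 6.41%. Acsl3 overlaps Utp14b on its own strand, and 4.22% of its words occur in that gene.

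Taking the related lipid genes together, 11 of 105 listed genes carried the flag (10.5%), of 120 symbols looked up. A narrower count kept related genes whose symbol has the same letters before its first digit as 1 of the 44. Of these, 1 of 27 listed genes was flagged (Apoc2, 3.70%). The rule goes by symbol and not by gene family, so it left out the flagged genes Apod and Lipg. Further lists set the range. Of 20 genes of cholesterol synthesis 0 were flagged, and of 20 genes of fatty acid oxidation 0. Of 9 surfactant and lamellar body genes 8 were flagged (88.9%), the surfactant protein genes Sftpa1, Sftpb, Sftpc and Sftpd with Abca3, Lamp3, Napsa and Slc34a2, and Ctsh, a lysosomal protease, was not. The differences between lists were not tested.

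**Figure D2:**
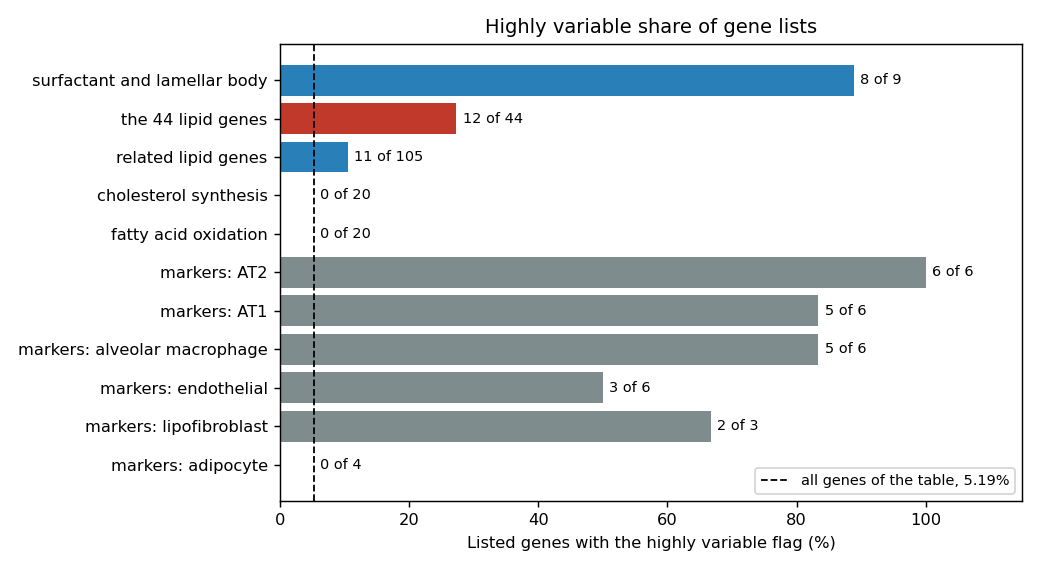
Percent of listed genes that carry the highly variable flag (horizontal axis) in the 44 lipid genes (red), other lipid lists (blue) and marker lists (grey), with the count beside each bar and a dashed line at 5.19% for all genes of the table. The lipid genes, at 12 of 44, lie between the surfactant list, at 8 of 9, and the lists of cholesterol synthesis and fatty acid oxidation, at 0 of 20 each.

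Several flagged lipid genes are also known from particular cell types, and the marker lists of those types were flagged to different degrees. Of the AT2 markers, all of them also in the surfactant list, 6 of 6 were flagged. Of the AT1 markers 5 of 6 were flagged (Aqp5, Pdpn, Rtkn2, Hopx and Ager), all but Cav1. Of the alveolar macrophage markers 5 of 6 were flagged (Chil3, Marco, Mrc1, Krt79 and Ear1), and Siglecf was not. Endothelial markers were flagged in 3 of 6 cases (Kdr, Gpihbp1 and Car4) and not for Pecam1, Cdh5 and Cldn5. For fibroblasts of the lipid-storing kind, Tcf21 and Pdgfra were flagged and Fgf10 was not. Of 7 adipocyte markers 4 were listed and 0 were flagged. Adipoq, Cfd and Lep were not listed, while Retn, Cidec, Plin1 and Car3 were. Markers of airway club cells (Scgb1a1, Scgb3a2 and Cyp2f2) and of red cells (Hba-a1, Hbb-bs and Alas2) were flagged in 3 of 3 cases each. The part of any cell type in the flags of the lipid genes was not tested.

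The flag was computed over all cells of both libraries, whose makeup is given here for the alveolar, endothelial and fibroblast types. The cell types are those the authors assigned, and could not be checked against markers here, since values of single genes were not analysed. AT2 cells gave 10.4% of all unique molecular identifiers (UMIs, counted transcripts) in CD from 400 cells, and 15.9% in HFD from 634 cells. AT1 cells gave 2.41% of UMIs in CD (185 cells, 2.10% of the cells) and 3.19% in HFD (334 cells, 3.48% of the cells). Alveolar macrophages gave 7.49% of UMIs in CD (293 cells) and 6.69% in HFD (266 cells). Endothelial cells gave 27.8% in CD (2889 cells) and 21.2% in HFD (2840 cells), and fibroblasts 10.1% (877 cells) and 11.9% (1191 cells). AT2 cells and alveolar macrophages held more of the UMIs than of the cells in both libraries. With 1 library per diet there was no replicate and no test of these differences.

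**Figure D3:**
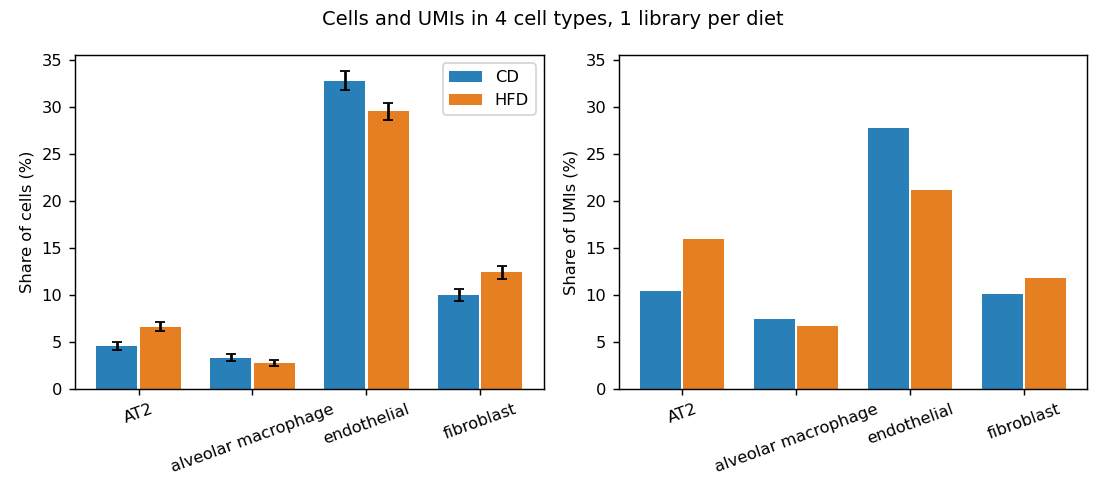
Share of cells (left, percent, bars with exact 95% binomial intervals) and share of UMIs (right, percent, no interval) of 4 cell types in the CD and HFD libraries, 1 library per diet. AT2 cells gave 10.4% of UMIs in CD and 15.9% in HFD, and endothelial cells 27.8% and 21.2%.

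Detected genes per cell were also counted before any gene filter. The median AT2 cell had 2790 genes in CD (95% interval 2725 to 2871) and 3062.5 in HFD (2975 to 3129). Alveolar macrophages had 3262 (3178 to 3351) and 3712.5 (3535 to 3834), the highest of the 4 types plotted in each library. Endothelial cells had 1526 (1499 to 1561) and 1513.5 (1478 to 1550), and fibroblasts 1892 (1812 to 1958) and 1822 (1746 to 1910). These intervals run over the cells within 1 library and hold no spread between mice or libraries. The difference between diets was not tested.

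In the genome, the 44 genes lay on 16 chromosomes and spanned from 3.08 kb (Apoe) to 272 kb (Acaca). Chromosome 19 held 9 of them, Scd1, Scd2, Fads1, Fads2, Acsl5, Lipa, Gpam, Chka and Cpt1a, which is 20.5% of the lipid genes on a chromosome with 3.39% of the listed genes. Of these 9, Scd1 and Chka were flagged, and 4.75% of all genes on the chromosome were. Chromosome 7, with 7.63% of the listed genes, held 5 lipid genes. Of these, Dgat2 and the neighbours Apoe and Apoc1 were flagged, and 5.51% of all genes on the chromosome were. Pairs within 1000 kb numbered 6. In Fabp5 with Fabp4 and Apoc1 with Apoe both genes were flagged, in Scd2 with Scd1 and Cpt1a with Chka 1 was, and in Fads2 with Fads1 and Gpam with Acsl5 neither was.

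The promoter windows of 34 lipid genes were compared with those of 13805 listed genes, each running from 250 bases before the RefSeq start to 50 after it. For 6 of the 34 (Cd36, Acaca, Acacb, Lipe, Plin3 and Acsl5) that start lies over 1 kb from the edge of the GENCODE gene, and they are counted below with the others. A GGGCGG box, on either strand, was present in 22 of 34 lipid promoters (64.7%) and in 56.9% of all. CCAAT was present in 16 (47.1%), against 37.9% of all. The E-box CACGTG was found in 5 (Elovl5, Lipe, Abca1, Lpin2 and Plin2, 14.7%), against 9.29%. The sterol element TCACNCCAC was found in 1, Pcyt1a (1.17% of all), and the DR1 repeat bound by PPAR and RXR, searched as an exact match, in 0 (0.0435% of all). No match says only that these letters are not in the window. TATAAA, added after the flags had been seen, was found in 4 (Fabp1, Acacb, Lipa and Abca1, 11.8%), against 8.66% of all. In the runs printed above, the TATA box of Fabp1 begins 30 bases before the start and that of Abca1 29 bases before it. The pair of CCAAT boxes of Chka begin 82 and 28 bases before it.

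Flagged genes of the table had promoters poor in CpG, with a median ratio of observed to expected CpG of 0.337 in 726 flagged genes and 0.714 in 13079 others. Of the 12 flagged lipid genes 5 had a promoter in the reference table, and Scd1, Fabp4, Fabp5, Lpl, Dgat2, Apoc1 and Abcg1 were not part of this comparison. The median was 0.708 in these 5 and 0.701 in the 29 unflagged lipid genes with a promoter. Fabp1 (0.198) and Apoe (0.403) lay below the median of 0.702 over all listed genes, and Fabp3 (0.708), Lpcat1 (0.823) and Chka (0.935) above it. Unflagged Acaca (0.0850), Lpin1 (0.0919) and Cd36 (0.216) were also low, and Acaca and Cd36 are among the 6 genes with a distant start. With 5 flagged promoters, these values describe the genes shown and were not tested.

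**Figure D4:**
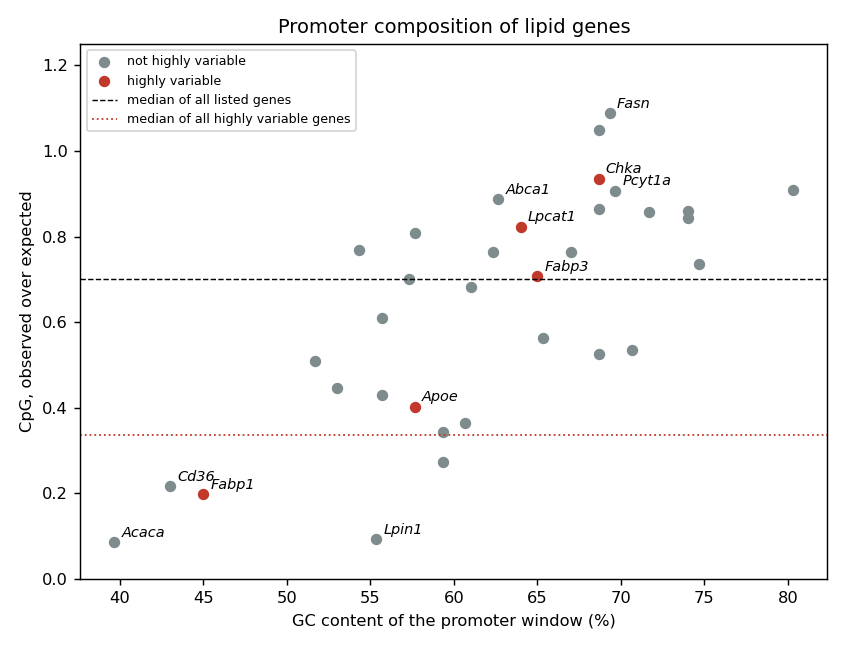
GC content (horizontal axis, percent) and observed over expected CpG (vertical axis, ratio) of the promoter windows of 34 lipid genes, red for those with the highly variable flag and grey for the others, with lines at the median of all listed genes (0.702) and of all flagged genes (0.337). The 5 flagged lipid genes range from 0.198 (Fabp1) to 0.935 (Chka).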

How the data were processed

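According to the methods of the study, the authors aligned reads with Cell Ranger to mm10 (GRCm38.p6), merged both libraries in Seurat (4.1.0 in the submitters' processing notes) and converted them for Monocle. The labels name a 3' kit and the methods a 5' kit. Cells with over 20% mitochondrial RNA, under 500 UMIs or under 250 genes, and genes found in under 5 cells, were removed. The authors flagged 1000 highly variable genes with normalised expression above 0.01, outside the mitochondrial, ribosomal and cell cycle classes. The deposited gene table holds these flags. The deposited cell table holds UMI counts, gene counts and the percent of mitochondrial UMIs per cell, none scaled further, with the cell type the authors assigned. No doublet removal is stated, and 27 barcodes occurred in both libraries.

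Lipid genes were matched by symbol, and 44 of 44 symbols equalled the name in GENCODE M21 (GRCm38), which held 19268 of the 19278 gene identifiers. The genes and lists were chosen with earlier results of these data known. All lipid genes were named, and of other lists the flagged ones and some that define a list, apart from an item that is not reported here. No set test was run. Promoters came from RefSeq (GRCm38.p6) for 34 of the 44 genes, with motifs sought on both strands. Shared words of 31 bases were counted over GENCODE transcripts. Cell shares have exact 95% binomial intervals and medians order-statistic intervals. Both treat the cells of 1 library as independent and hold no spread between mice or libraries. The CD library held 8793 cells with 42470977 UMIs and the HFD library 9604 cells with 50679251. List counts and motif searches were tested on simulated data. Alternatives changed the lists, denominators, windows and cell filters. The software was scipy 1.17.1, numpy 2.4.6 and pandas 2.3.3 under Python 3.11.15, with plots from matplotlib 3.10.9.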

Additional observations from a re-analysis of the deposited data

How the results depend on the processing

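All 44 genes had matched exactly, so ignoring case could not change that count and is no check. Leaving out 1 role group at a time only subtracts its own flagged genes from the 12, with the lowest count of 8 without binding and uptake, and says nothing about stability. The count of flagged lipid genes was 9 of 37 without genes sharing over 5% of their 31-base words with others, an alternative chosen after seeing the data. Leaving out defining markers removed no lipid gene, so it is no check either. The flagged share of all genes was 5.26% outside the 3 gene classes and 5.90% in protein-coding genes, in place of 5.19%. Counting only related genes that share their symbol letters with a lipid gene gave 1 flagged gene in place of 11. By construction this ran over fewer genes (27 in place of 105). The AT2 share of UMIs in CD was 10.3% at no more than 10% mitochondrial UMIs, 12.5% at 3000 UMIs or more and 10.1% without the 1% of cells with the most UMIs, and in HFD 15.5%, 18.6% and 15.4%. The cause was not tested. It stayed higher in HFD under these 3 filters. Without the 50 bases after the start, the motif counts in lipid promoters were 20 for GGGCGG, 15 for CCAAT, 4 for CACGTG, 1 for TCACNCCAC and 0 for the DR1 repeat. No replicate could be left out. No paired analysis was possible because CD and HFD are single libraries without a shared replicate number in the labels. The flag is a fixed number of top ranks, so how far a lipid gene lay from the limit is unknown here, and depth per gene limits it in a way that was not analysed here.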
